A study of Mus musculus with 4 samples.

Results

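The Parp1 locus of mouse chromosome 1 was examined as a check of the knockout in Parp-1 deficient embryonic stem cells. Its members were the array probes with file positions between 182.2 and 182.6 Mb, which number 28 of the 97651 probes besides control spots. They lay in 5 runs, a run being a series of probes whose neighbouring starts are at most 500 bp apart, and 4 of the 5 held at least 3 probes, of 14121 such runs on the array. The samples were the J1 mouse embryonic stem cell line (wild type), its Parp-1 deficient derivatives 210-58 and 226-47, which the labels call cell lines and which are called clones here, and J1 cells treated with the PARP inhibitor PJ34, with 1 array each. Clones 210-58 and 226-47 were taken as 2 samples of 1 group, and the labels give neither the structure of the disrupted allele nor the dose and time of PJ34. On every array the whole genomic DNA of the cells carried Cy3, and DNA of the same cells immunoprecipitated with an antibody against 5-methylcytidine (IP) carried Cy5. Wild type J1 and clone 210-58 shared 1 slide, and clone 226-47 and the PJ34 treated cells shared the other. The number of arrays limits the precision, and nothing says how the clones were derived from each other or from J1.

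Parp1 encodes a nuclear enzyme that binds breaks in DNA and attaches poly(ADP-ribose) to itself and to other proteins, and PJ34 blocks its catalytic site without altering the gene. Poly(ADP-ribose) is known to bind the maintenance methyltransferase Dnmt1 and to reduce its activity. Like most genes expressed in every tissue, Parp1 starts in a CpG island, a stretch rich in CG dinucleotides that is usually unmethylated. The antibody captures fragments by their methylated cytosines, so the log2 ratio of IP to whole DNA, centred on each array's median, is 0 for a typical probe and higher where more methylated DNA was captured. The whole DNA signal alone, log2 and centred in the same way, follows the amount of DNA at the probe.

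No column of the files names a gene, and neither the headers nor the labels state the build of the positions. The runs were therefore named by spacing: each of the 829 runs of any size on chromosome 1 was tried as the place of the Parp1 start, and the distances to the neighbouring genes Stum, Lin9, Mixl1 and Acbd3 in a table of build GRCm38 were compared with the distances to other runs. Only 1 of the 829 runs had a run within 500 bp of the expected distance for all 4 neighbours, 7 had it for 2 of them, 69 for 1 and 752 for none. That run lies on chromosome 1 from 182405363 to 182406276 and holds 7 probes, and it is called the Parp1 run here. By gene distance Stum lay at -85.4 kb from the Parp1 start, and a run of 5 probes from 182319796 to 182320324 lay at -85.8 kb from the middle of the Parp1 run. Lin9 lay 72.3 kb after Parp1, and a pair of probes from 182478378 to 182478536 lay 72.6 kb after its run. For Mixl1 the distances were 128.1 and 127.8 kb (7 probes, 182533166 to 182534064), and for Acbd3 157.2 and 157.1 kb (7 probes, 182562436 to 182563395). These names are assignments by distance, and where a probe lies relative to a transcription start was not resolved.

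**Figure D1:**
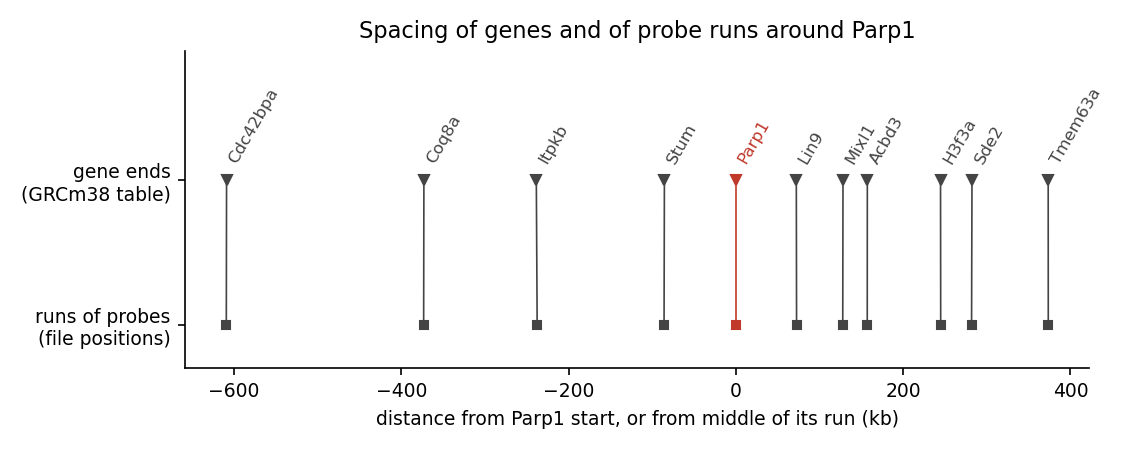
Distances in kb of gene ends from the Parp1 start in the GRCm38 gene table (triangles) and of runs of probes from the middle of the Parp1 run in file positions (squares), joined by lines for the 11 genes with an end within 500 bp of a run. The lines are nearly upright because only genes matched within 500 bp are drawn, with a spacing difference of at most 1.0 kb. Parp1 is the anchor, and Stum, Lin9, Mixl1 and Acbd3 served to pick its run. Genes of the list of 19 without a match are not drawn.

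The promoter sequence is shown because the array was designed for CpG islands and CG dinucleotides are the letters that carry most methylation. The RefSeq tables held promoters for Parp1 and Stum, and Lin9, Mixl1 and Acbd3 are named only. Each is 300 bases from 250 before to 50 after the annotated start, 5′ to 3′ on the gene's strand, in build GRCm38.p6, with every CG in capitals. Parp1 is at chr1:180568641-180568940 on the + strand, and Stum at chr1:180483455-180483754 on the - strand.
Parp1: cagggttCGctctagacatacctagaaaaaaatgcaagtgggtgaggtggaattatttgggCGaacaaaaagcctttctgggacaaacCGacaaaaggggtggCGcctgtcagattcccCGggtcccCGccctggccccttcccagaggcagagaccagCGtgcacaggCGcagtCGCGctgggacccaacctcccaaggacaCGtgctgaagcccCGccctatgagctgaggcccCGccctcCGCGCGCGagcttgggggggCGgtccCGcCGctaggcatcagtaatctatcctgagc
Stum: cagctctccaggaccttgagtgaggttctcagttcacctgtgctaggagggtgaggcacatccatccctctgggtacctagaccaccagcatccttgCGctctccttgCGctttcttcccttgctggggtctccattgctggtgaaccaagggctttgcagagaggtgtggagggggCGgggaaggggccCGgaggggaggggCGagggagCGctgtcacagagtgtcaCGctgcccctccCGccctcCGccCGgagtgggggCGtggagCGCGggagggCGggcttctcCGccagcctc
The Parp1 promoter holds 20 CG dinucleotides, 6 in its first 150 bases and 14 in its last 150, and 26.5% of the 32851 promoters of this length in the table hold at least as many. The Stum promoter holds 15, of which 13 lie in its last 150 bases, and 34.6% of promoters hold at least as many. The GC box GGGCGG, searched on both strands with overlaps counted, occurs 4 times in each of the 2 sequences. At least 1 match is found in 35.7% of the promoters and at least 4 in 5.49%. The sequence of the array probes is not in the files, so these letters could not be laid under single probes.

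The whole DNA signal of the Parp1 run in both Parp-1 deficient clones was close to that of wild type, and no difference passed the test. Its log2 whole DNA signal was -0.16 in wild type J1 and -0.12 in PJ34 treated cells, against -0.20 in clone 210-58 and -0.20 in clone 226-47. The 4 arrays thus lay close together, and both clones were slightly below both arrays of J1. Over all runs, 9.47% had both clones below both J1 arrays. Against wild type the clones differed by -0.04 (SE 0.09, 95% interval -0.24 to 0.16, limma adjusted p = 0.9996), and by -0.05 and -0.04 when taken singly. Against PJ34 treated cells, whose Parp1 gene is not disrupted, they differed by -0.08 (SE 0.08, 95% interval -0.28 to 0.12, limma adjusted p = 0.99998). All 7 probes were well above background in Cy3 on all 4 arrays, with raw signals of 160 to 857. In clone 210-58 the 7 differences from wild type ran from -0.25 to 0.20, and in clone 226-47 from -0.25 to 0.11. The probe starting at 182405765 was the lowest in both, at -0.25, and was at -0.07 after PJ34.

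Stretches of other chromosomes where the same channel was lower in both clones give a scale for these differences. The runs of chromosome 14 beyond 93 Mb, 57 in number, gave a median whole DNA difference of -0.76 for clone 210-58 (-0.98 to -0.30) and -0.71 for clone 226-47 (-0.86 to -0.25) relative to wild type. The 810 runs of chromosome 8 had medians of -0.44 (-0.85 to 0.13) and -0.42 (-0.92 to 0.44), so single runs there spanned the values of the Parp1 run. The interval of the Parp1 run against wild type, which ends at -0.24, does not reach those 4 medians. With the median over the 7 probes in place of the mean the difference of the Parp1 run was -0.25. This is the difference of the probe at 182405765, which was the middle probe on wild type and on both clones. The median of the 7 probe differences was -0.11 in clone 210-58 and 0.01 in clone 226-47. No run of the array was 2 or more below wild type in both clones, and 2 of 14121 (0.0142%) were 1 or more below it. Neither was in the locus, and PJ34 treated cells were as low in both (-1.21 and -1.75, against -1.28 and -1.72 for the mean of the clones). Tested with limma against wild type, the clones had 0 called runs of the 4 in the locus, with 0 at an unadjusted p under 0.05, against a background of 0.00708% of all runs. That test made no call on chromosome 14 either (0 of 57 runs, 54 at an unadjusted p under 0.05), so the lack of a call does not by itself set the locus apart. A fit of both clones against both J1 arrays with slide as a block, chosen after seeing the data, called 5.38% of all runs, 52 of the 57 on chromosome 14, 639 of 810 on chromosome 8 and 0 of 770 on chromosome 1 (0 at an unadjusted p under 0.05). In that fit the Parp1 run differed by -0.06 (95% interval -0.23 to 0.11, limma adjusted p = 0.9999).

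**Figure D2:**
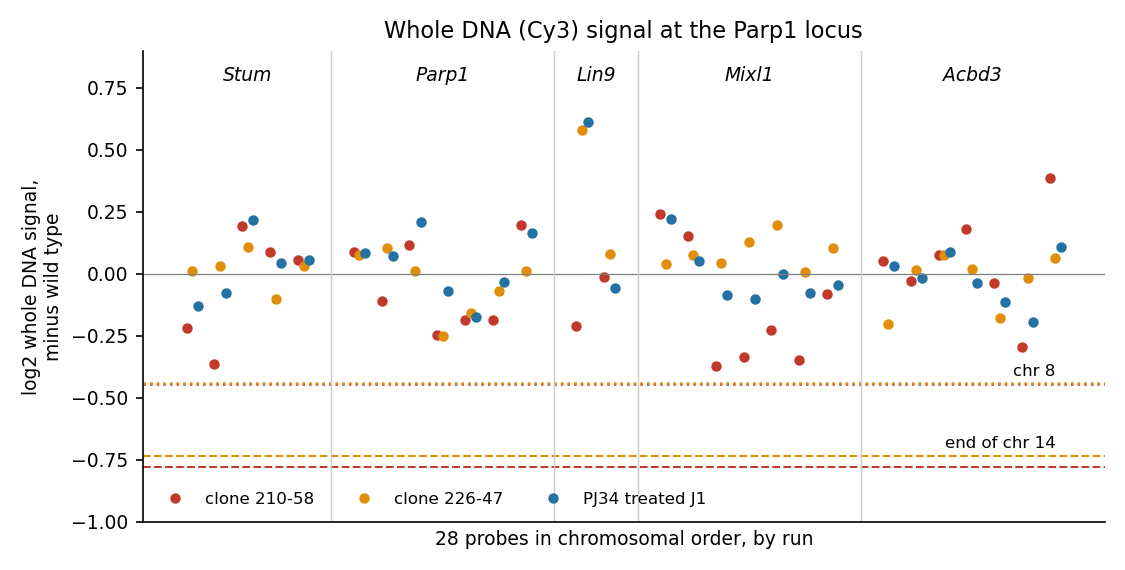
Log2 whole DNA (Cy3) signal minus wild type for each of the 28 probes, in order along the chromosome and split by run, in clone 210-58, clone 226-47 and PJ34 treated J1. Dotted and dashed lines are the medians over the probes of chromosome 8 (-0.44 in both clones) and of chromosome 14 beyond 93 Mb (-0.78 and -0.73). No probe of the locus lies at or below the lines of chromosome 8, but those lines are medians and single probes there also lie above them.

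Over the whole locus the whole DNA signal lay near wild type as well. The median of the 28 probe differences was -0.03 (SD over probes 0.21) in clone 210-58, 0.03 (SD 0.15) in clone 226-47 and -0.01 (SD 0.16) after PJ34. The lowest single value was -0.37, in clone 210-58. The largest differences upward, 0.58 in clone 226-47 and 0.61 after PJ34, belonged to the first of the 2 Lin9 probes, and those 2 arrays shared a slide. Of the 28 probes, 0 were called in Cy3 by limma, with 0 at an unadjusted p under 0.05, against 0.00617% of all probes. A probe outside a deleted part checks nothing, and an inserted cassette leaves the DNA under these probes in place. The measurements therefore bound the mean loss of DNA over the 7 probes of the Parp1 run, and not the loss at single probes. No interval was taken for a single probe. For the mean of the clones, the Cy3 difference of -0.25 at the probe from 182405765 had an SE of 0.18. At the probe from 182533666 it was -0.10 with an SE of 0.31. Whether the gene is disrupted elsewhere was not tested.

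In the IP channel the Parp1 run was higher in both clones than in either array of J1. The log2 ratio of IP to whole DNA was -1.09 in wild type J1 and -0.84 in PJ34 treated cells, against 0.35 in clone 210-58 and -0.16 in clone 226-47. Both clones lay above both arrays of J1 and so did not overlap with J1, which held for 19.5% of all runs in this direction. The clones rose by 1.19 over wild type (SE 0.31, 95% interval 0.58 to 1.79, limma adjusted p = 0.00909), by 1.44 in clone 210-58 and 0.93 in clone 226-47, with an SD of 0.36 between them. This was 1 call among the 4 runs of the locus, where 2.78% of all runs were called and 1.19% were called higher. By the mean of the clones the Parp1 run ranked 97 of 14121 runs from the highest and 3 of 770 on chromosome 1. The single wild type array enters each of these values, and limma's estimated prior put full weight on the trend of spread over all runs, beside 1 residual degree of freedom.

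The call depended on the processing. The rise was 1.06 with both J1 arrays as the comparison and slide as a block (adjusted p = 0.0863 from limma), where 0.333% of runs were called. Within the slide that held wild type and clone 210-58 the difference was 1.44, and within the slide of clone 226-47 and PJ34 treated cells it was 0.68. It was 0.37 with normexp background correction of the raw signals (adjusted p = 0.396 from limma) and 0.75 after intensity loess (adjusted p = 0.327).

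Every probe of the Parp1 run was higher in both clones than in wild type, which held for 2.16% of the 5893 runs with at least 7 probes. These include longer runs, in which more probes must be higher, and no share was taken among runs of 7 probes alone. In chromosomal order, the probe starting at 182405363 gave -2.19 (wild type), -0.82 (210-58), -1.41 (226-47) and -3.48 (PJ34). The next, at 182405503, was at 1.89, 2.34, 2.06 and 2.54 on the same 4 arrays, and the one at 182405591 was at -0.53, 0.0030, 0.11 and -0.11. The probe at 182405503 stood apart from the other 6 on every array, as the only one above 1. At 182405765 the values were -1.86, -0.59, -0.57 and -0.84, and at 182405899 they were -1.51, 0.20, -0.51 and -1.07. The probes at 182406030 and 182406217 were at -1.93 and -1.51 on the wild type array and at -1.80 and -1.10 on the PJ34 array, while clone 210-58 gave 0.45 and 0.85 and clone 226-47 gave -0.46 and -0.34. Differences from wild type in clone 210-58 were thus smallest at 182405503 and 182405591, at 0.44 and 0.54, and largest at the last 2, at 2.37 and 2.35. In clone 226-47 they ran from 0.16 at the second probe to 1.47 at the sixth.

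**Figure D3:**
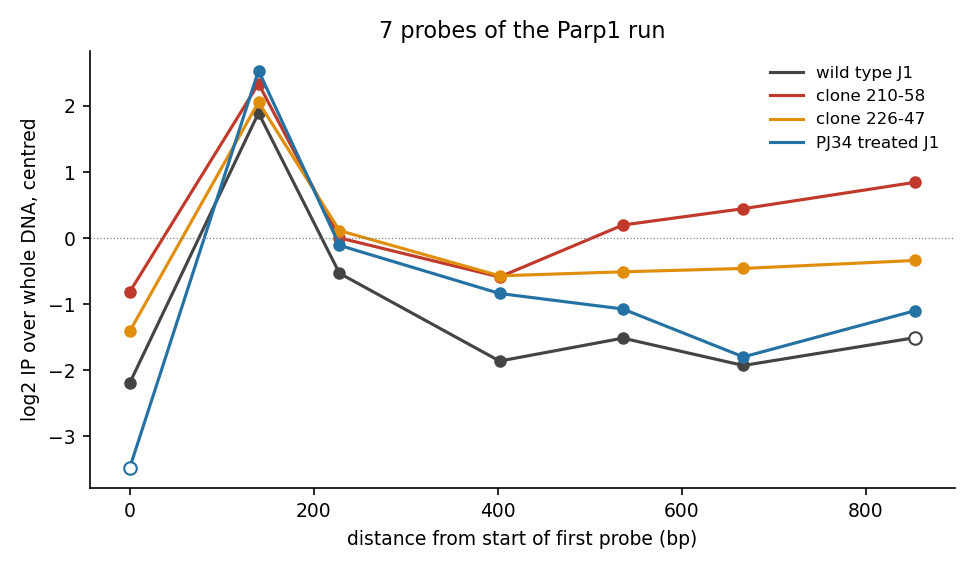
Centred log2 ratio of IP to whole DNA at the 7 probes of the Parp1 run against the distance in bp from the start of the first probe, for wild type J1, clone 210-58, clone 226-47 and PJ34 treated J1; open circles mark a Cy5 signal that was not well above background. At 6 of the 7 probes both clones lie above both J1 arrays, and at the second probe PJ34 treated J1 is highest. At the last 2 probes clone 210-58 lies at 0.45 and 0.85 and wild type at -1.93 and -1.51.

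Tested singly over all 97179 probes used, the last 2 probes of the Parp1 run were the ones called among the 28 of the locus, and they are named after their values were seen. The probe at 182406030 rose by 1.92 (SE 0.45, limma adjusted p = 0.00237) and that at 182406217 by 1.76 (SE 0.41, limma adjusted p = 0.00217), where 3.09% of all probes were called. The Cy5 signal of the probe at 182406217 was not well above background in wild type, and that of the probe at 182405363 was not after PJ34, so their values there are uncertain. On the other arrays all 7 probes had Cy5 well above background. With only the 5 probes that passed on all 4 arrays the rise of the run was 1.09 (adjusted p = 0.00162 from limma). Among these 5, raw Cy5 in wild type was 80 at 182405765, 79 at 182405899 and 83 at 182406030. The median Cy5 background of that array was 56.5, so the filter kept dim wild type signals. With normexp on the raw signals the rise was 0.37. The Cy5 signal alone, log2 and centred, was -1.24 in wild type and -0.95 with PJ34 but 0.17 in clone 210-58 and -0.36 in clone 226-47, and the excess of the clones was 1.14 (SE 0.36, limma adjusted p = 0.0606). The whole DNA signal of the same run differed by -0.04.

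PJ34 treated cells had a ratio at the Parp1 run 0.25 above wild type, with 6 of 7 probes higher and the first, the one not well above background there, at -1.29. With only the 5 probes well above background on all arrays their difference was 0.53. A size of 1 was used for arrays without replicates, which 3.70% of all runs reached, and 0 of the 4 runs of the locus did. Against PJ34 treated cells the clones were higher by 0.93 (SE 0.29, 95% interval 0.358 to 1.504, limma adjusted p = 0.0856), where 1.35% of runs were called. With the same 5 probes this difference was 0.56 (limma adjusted p = 0.370). Of the 4 runs 0 were called and 1, the Parp1 run, had an unadjusted p under 0.05. The same 2 last probes were higher in the clones than after PJ34 by 1.79 (limma adjusted p = 0.00377) and 1.35 (limma adjusted p = 0.0314), where 2.51% of probes were called. Raw Cy5 after PJ34 was 82 at both of these probes, against a median background of 57.5 on that array, so these signals were dim. With normexp on the raw signals the run was 0.25 higher in the clones than after PJ34. The comparisons with wild type and with PJ34 share the arrays of both clones. That the clones differ from PJ34 treated cells over the run as a whole was not shown at this threshold.

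The level of a run moves with its difference on these arrays, above all in clone 226-47. Among the 1814 runs at -1 or below in wild type, clone 226-47 exceeded wild type by a median of 0.53, clone 210-58 by 0.03 and PJ34 treated cells by 0.10. These runs were chosen by the same wild type array that was subtracted, so these medians do not separate level from that choice. Among the 2911 runs whose mean over the 4 arrays lay within 0.25 of that of the Parp1 run (-0.44), the corresponding medians were 0.18 for clone 226-47 and -0.06 for clone 210-58. The middle 90% of those runs, from the 5th to the 95th percentile, lay between -0.37 and 0.68 in clone 226-47 and between -0.75 and 0.76 in clone 210-58. The Parp1 run, at 0.93 and 1.44, lay above both ranges, and 1.13% of the runs of like level were called higher. That level is a mean that includes both clones, and the wild type level of the Parp1 run was lower, at -1.09. No range was taken among runs of like wild type level, so the run was not compared with those. The part of this dependence on level in the difference of the Parp1 run was not tested.

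**Figure D4:**
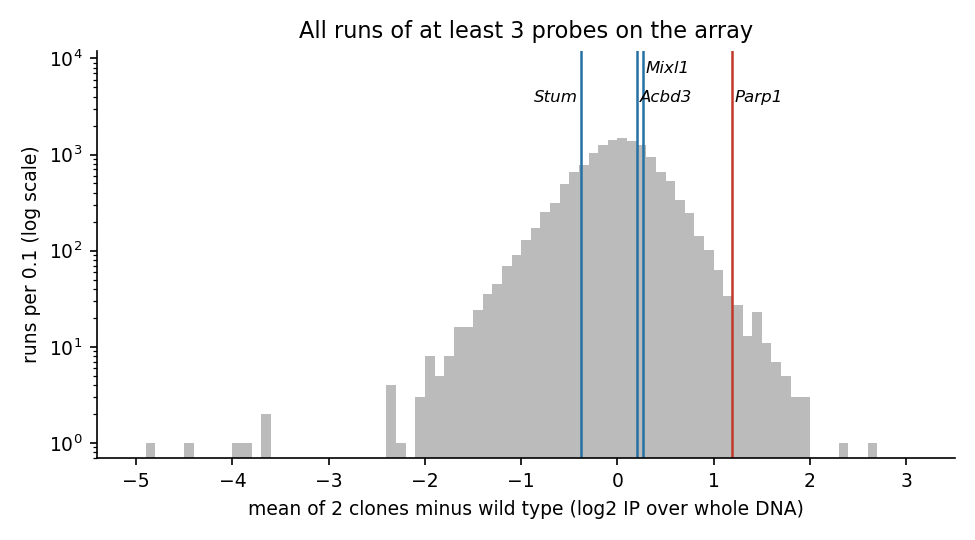
Number of runs, on a log scale, in bins of 0.1 of the mean difference of the 2 clones from wild type in log2 IP over whole DNA, over all 14121 runs of at least 3 probes. Lines mark 4 runs of the locus: Stum at -0.38, Acbd3 at 0.20, Mixl1 at 0.26 and Parp1 at 1.19.

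The neighbours of Parp1 showed no called difference in either channel. Stum, which encodes a membrane protein named for its part in mechanosensory transduction in flies, lay upstream. Its run was the most enriched of the locus, with ratios of 1.22 in wild type and 0.98 with PJ34, and of 0.96 in clone 210-58 and 0.73 in clone 226-47. Wild type was the highest of the 4 arrays, and all 5 probes were lower in both clones. The difference of -0.38 (SE 0.32, limma adjusted p = 0.810) did not pass the test. Within the run, 4 of its 5 probes lay between 1.51 and 1.70 in wild type and the last at -0.40.

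Lin9 encodes a subunit of the MuvB complex, which controls cell cycle genes, and only 2 probes lay near the matched end of the gene, too few for the run test. Their mean ratio was 0.23 in wild type and 0.64 with PJ34, and it was 0.41 in clone 210-58 and 0.38 in clone 226-47. The clones lay between wild type and PJ34 treated cells, and neither probe was called (adjusted p = 0.916 and 0.998 from limma).

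Mixl1 encodes a homeodomain transcription factor of the primitive streak. Its run stood at -0.14 in wild type and 0.38 with PJ34, with clone 210-58 at 0.22 and clone 226-47 at 0.03. PJ34 treated cells were the highest, with 5 of 7 probes above wild type, and the mean of the clones lay 0.26 above the wild type array (SE 0.29, limma adjusted p = 0.922). The largest single difference after PJ34, 1.31, was at the probe from 182533666, where the clones were at 0.67 and 0.87 above wild type.

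Acbd3 encodes an adaptor protein of the Golgi apparatus. Its run stood at 0.0018 in wild type and 0.55 with PJ34, with clone 210-58 at 0.07 and clone 226-47 at 0.34. All 7 probes were above wild type after PJ34, and the clones differed by 0.20 (SE 0.29, limma adjusted p = 0.977). Its probes spread widely on every array, with a wild type SD of 1.67 among the 7 probes, from 2.42 at the second probe to -1.89 at the sixth. The PJ34 differences from wild type were 0.51 at Mixl1 and 0.55 at Acbd3, with no replicate check, and their order relative to Parp1 changed with the processing.

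**Figure D5:**
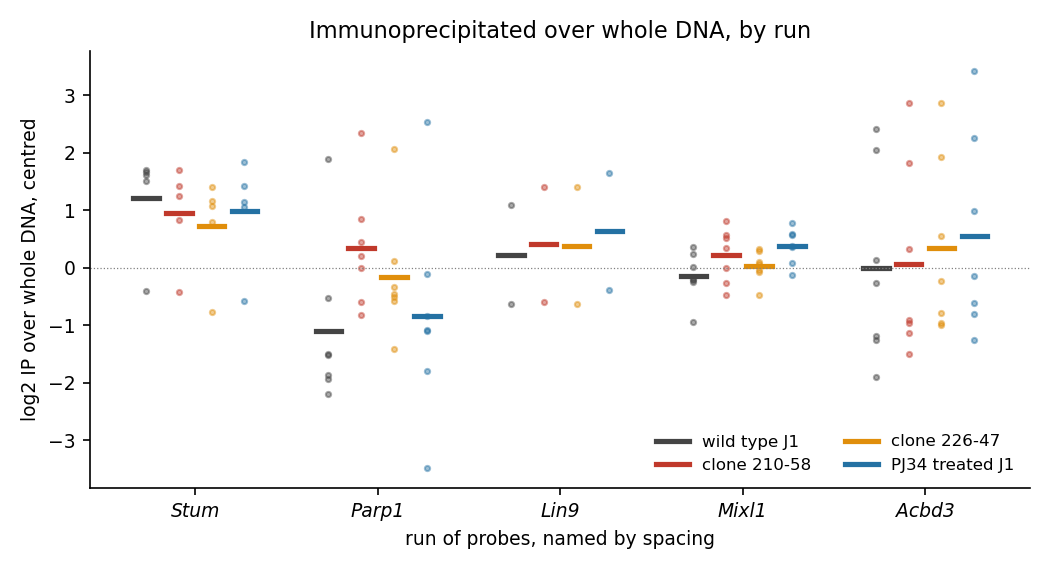
Centred log2 ratio of IP to whole DNA in the 5 runs of the locus, named by spacing; points are single probes and bars their mean on each array. At Parp1 the bars of the clones lie at 0.35 and -0.16 and those of wild type and PJ34 treated J1 at -1.09 and -0.84, while at the other runs the bars overlap or PJ34 or wild type is highest.

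Within 1 Mb on either side of the locus there were 18 more runs. Limma called 0 of them in the IP ratio (2 at an unadjusted p under 0.05), with differences from -0.55 to 0.79 and a median of 0.07, against a median of 0.01 over all runs. In whole DNA 0 were called (0 at an unadjusted p under 0.05), and the differences lay between -0.16 and 0.13. Of a list of 19 genes around Parp1, 11 were matched to runs by spacing, 6 of these outside the locus: Cdc42bpa, Coq8a and Itpkb on 1 side and H3f3a, Sde2 and Tmem63a on the other. The nearest were Itpkb, an inositol phosphate kinase gene, at 0.05 (SE 0.29, limma adjusted p = 0.9997), and H3f3a, a gene for histone H3.3, at 0.07 (SE 0.42, limma adjusted p = 0.9997). None of the 6 was called, and their differences ran from -0.18 to 0.07. The other enzymes of poly(ADP-ribose) turnover lie elsewhere in the genome and were not analysed here, since the files give no names for their runs.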

How the data were processed

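Genomic DNA was extracted with phenol and chloroform and sonicated, per the labels' protocols. The authors deposited 1 Agilent two-channel file per sample. The intensity values came from Feature Extraction 10.7.3.1, per the file headers (9.1 per the submitters' processing notes), and are background-subtracted and dye-normalized. The files' raw median intensities and their marks of outlier, saturated and dim spots were used as well. The deposited value table holds a linear ratio per spot, equal to processed Cy5 over Cy3 within 2.13e-08, not centred, with medians over probes of 0.832 (wild type), 0.781 (210-58), 0.810 (226-47) and 0.772 (PJ34).

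Median raw signals were 292 to 310 in Cy3 (background 42 to 43) and 133 to 154.5 in Cy5 (56.5 to 57.5). The 5950 control spots, 442 probes without a position and 30 outlier probes were left out, none of them in the locus, and 0 probes were saturated. Log2 values were centred on each array's median with no loess or quantile step. For runs of at least 3 probes, limma (3.58.1, under R 4.3.3) was fitted (mean-variance trend, Benjamini-Hochberg over all runs or probes, threshold 0.05), on 2 clones against 1 array, with 1 residual degree of freedom. The fit of the IP ratio gave its prior full weight, so SEs follow the general trend with level. The fit was also run on simulated data in which the noise of every array followed the spread between the 2 clones. It could not test whether the single wild type array varies like them. PJ34 and wild type have 1 array each, so only sizes are given. All runs of the locus are described by rule, and single probes as the extremes of a run. The rule gave a run a gene name only from a column, a matched probe sequence or a table of the files' own build; naming by spacing departs from it and, like the fit with slide as a block, was added after seeing the data. The locus and gene list were chosen with earlier results of these data known. Alternatives were normexp, medians over probes, centring on chromosome 1, gaps of 300 and 1000 bp, a filter on dim probes, quantile and loess normalization, no trend, and each clone left out. A gene of the list is not reported here.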

Additional observations from a re-analysis of the deposited data

Results flagged for a closer look

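At 2 probes of the Parp1 run the clones differed from PJ34 treated cells by limma's test over all probes, with 2 clones against 1 array. Of all probes, 2.51% were called in this comparison, and these 2 were named among the 28 of the locus after their values were seen. The run as a whole was not called against PJ34 under any setting. The alternative settings were applied to runs and not to single probes. Raw Cy5 after PJ34 was 82 at both probes, against a median background of 57.5 on that array, so both calls rest on dim signals. The probe from 182406030 was 1.79 higher in the clones (adjusted p = 0.00377) and that from 182406217 was 1.35 higher (adjusted p = 0.0314) on the log2 scale of IP over whole DNA, in both clones in each case.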

How the results depend on the processing

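The rise of the Parp1 run in the clones over wild type kept its direction under all alternatives, from 0.37 to 1.44, and lost its limma call under 5. It was 0.37 with normexp (adjusted p = 0.396), 1.102 with quantile normalization (0.0914), 0.75 with intensity loess (0.327), 1.19 without the trend (0.109) and 1.06 with slide as a block (0.0863), leaving 0 called runs in the locus in place of 1. It held by medians over probes (1.38), centring on chromosome 1 (1.24), both gaps and the filter on dim probes (1.09), and was 0.93 and 1.44 with either clone left out. Against PJ34 no setting gave a call (adjusted p from 0.0782 to 0.922, differences 0.25 to 1.18). Runs called on the array in the IP ratio were 393 against wild type, 27 with quantile, 0 with loess, 182 without the trend and 47 with the slide block. Against PJ34 they were 190, 10 with quantile, 1 with loess and 95 without the trend. Runs of size 1 after PJ34 were 522, 99 with normexp, 840 by medians and 65 with loess. Whole DNA calls against wild type were 1, 25 with normexp, 16 at gaps of 300 bp, 666 with the dim filter and 760 with the slide block. Against PJ34 they were 0, 1 at gaps of 300 bp and 530 with the dim filter.

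Normexp turned the sign of small whole DNA differences: at Parp1 to 0.12 against wild type and 0.043 against PJ34, at Stum to 0.042 and 0.014, and at Acbd3 to -0.0033. At Acbd3 the whole DNA sign also turned by medians (-0.041), centring on chromosome 1 (-0.015) and gaps of 300 bp (-0.028), and its IP ratio by medians (-0.30) and the slide block (-0.070). The Stum ratio against PJ34 was 0.018 with normexp and 0.0051 by medians. The whole DNA difference of PJ34 from wild type at Parp1 was 0.081 with normexp, -0.067 by medians, 0.0086 centred on chromosome 1 and 0.0016 with the dim filter. At a size of 0.5 in place of 1, 2 runs of the locus differed after PJ34. The cause of these changes was not tested. No paired analysis was possible by replicate number because the groups share fewer than 2 of them, while the slide block above pairs a clone with a J1 array on each slide. Signal over background limits the Cy5 values of the least enriched probes.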
